A study of Homo sapiens with 12 samples.

Results

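The 39 human HOX cluster genes were described in SK-OV-3 cells, an established human ovarian cancer cell line. They were taken as every row whose symbol is HOXA, HOXB, HOXC or HOXD followed only by digits, which gave 39 of the 60623 Ensembl genes in each file, and 13 of them had at least 1 FPKM (fragments counted per kilobase and relative to the size of the library, a level per transcript length) in at least 3 of the 12 libraries. The level that separates these 13 from the other 26 was selected on the measured values of these libraries, and the fall of HOXB8 with doxorubicin was known when the genes were chosen, so the values of HOXB8 are a description and no independent evidence. All cells were of the same line and were exposed for 24 h to the solvent DMSO, to 300 nM doxorubicin, to 3 μM IN10018, or to the same doses of both (the combination), with 3 libraries per treatment. Doxorubicin is a topoisomerase II poison of the anthracycline class, and IN10018 is an inhibitor of focal adhesion kinase (FAK). The comparison asked how each drug, alone and together, changed the RNA of the tumor cells.

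HOX genes encode homeodomain transcription factors that give cells their position along the body axis. They lie in clusters in which the order of the genes along the chromosome follows the order of their expression domains, and genes with the same number in different clusters are paralogues. In the adult reproductive tract their pattern sets the identity of oviduct, uterus and cervix, and ovarian carcinomas often express HOX genes that the normal ovarian surface lacks. Polycomb proteins keep silent clusters repressed, MLL complexes keep active ones on, and HOX proteins often bind DNA with TALE partners of the PBX and MEIS families.

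The HOX clusters also hold microRNA genes, and the mature sequences of those whose targets include HOX messages are shown because HOXB8, the gene lowest relative to DMSO in doxorubicin, carries a known site for one of them. Capitals mark the seed, bases 2 to 8, and the sequences are from RefSeq (GRCh38.p14). The 2 miR-196 forms share a seed and miR-10a has another. MIR196A1 lies in the HOXB cluster upstream of HOXB9 (chr17:48632532-48632553, minus strand), MIR196A2 makes the same mature sequence from the HOXC cluster, MIR196B lies in the HOXA cluster, and MIR10A lies within the annotated HOXB4 gene (chr17:48579904-48579926, minus strand).
hsa-miR-196a-5p: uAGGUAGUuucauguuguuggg
hsa-miR-196b-5p: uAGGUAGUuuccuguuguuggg
hsa-miR-10a-5p: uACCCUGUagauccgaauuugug
The best ungapped match to miR-196a-5p in the HOXB8 3′ UTR (GENCODE release 29, GRCh38) starts at base 411 of its 856 bases, in chr17:48612770-48612791 on the minus strand. It is printed with capitals for the bases that form Watson-Crick pairs with the microRNA.
HOXB8 site: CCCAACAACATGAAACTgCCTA
In this site 21 of 22 bases pair, and the base in lower case falls within the seed, so that the plain seed match ACTACCT is not found in the HOXB8 3′ UTR. HOXB8 was the 1 gene of 19004 with a match of 21 or more bases, while the other HOX genes reached 11 to 15. Among the 13 genes above the level, the seed match was present in HOXB6, HOXB7 and HOXB13, and among all 19132 genes with a 3′ UTR it was present in 6.94%. The seed match of miR-10a, ACAGGGT, was present in HOXB3 among the 13, and in 12.4% of all genes. Mature microRNAs were not measured by these libraries. The rows of MIR10A, MIR196A2 and MIR196B were listed at 0 in every library and that of MIR196A1 ranged from 0 to 3.77 FPKM, and the part of microRNAs in the changes of HOXB8 was not tested.

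Expression came mainly from the HOXB cluster, which lies on chromosome 17 (48528526 to 48729178, minus strand, GRCh38). Of its 10 genes 9 passed the level, as did 3 of the 9 HOXD genes on chromosome 2, 1 of the 11 HOXA genes on chromosome 7, and 0 of the 9 HOXC genes on chromosome 12. Summed over its genes, the HOXB cluster held 81.4% to 89.0% of all HOX FPKM of a library and the HOXD cluster 8.01% to 13.2%. The HOXA cluster held 2.26% to 4.16% and the HOXC cluster 0.121% to 1.49%. Thus the order B, D, A, C was the same in each of the 12 libraries, and no ranges of neighbours in that order overlapped.

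By mean over the 12 libraries, HOXB7 was the highest member (22.1 FPKM, range 14.3 to 29.5), followed by HOXB2 (14.5 FPKM, 9.78 to 19.4) and HOXB8 (11.3 FPKM, 3.75 to 20.2). HOXB9 at 9.64 FPKM and HOXB6 at 9.42 FPKM came next, and their ranges overlapped with each other and with that of HOXB8. HOXB4 (6.86 FPKM), HOXD8 (5.33 FPKM) and HOXB5 (5.29 FPKM) formed a middle tier, and HOXD9 (2.66 FPKM) and HOXB3 (2.55 FPKM) a lower one. The 3 genes of the most 5′ group that passed, HOXA13, HOXD13 and HOXB13, were near the level itself, with 1.17, 1.05 and 0.921 FPKM. The ranges of neighbours in this order overlapped throughout, and the place of HOXB8 depended on the treatment.

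**Figure D1:**
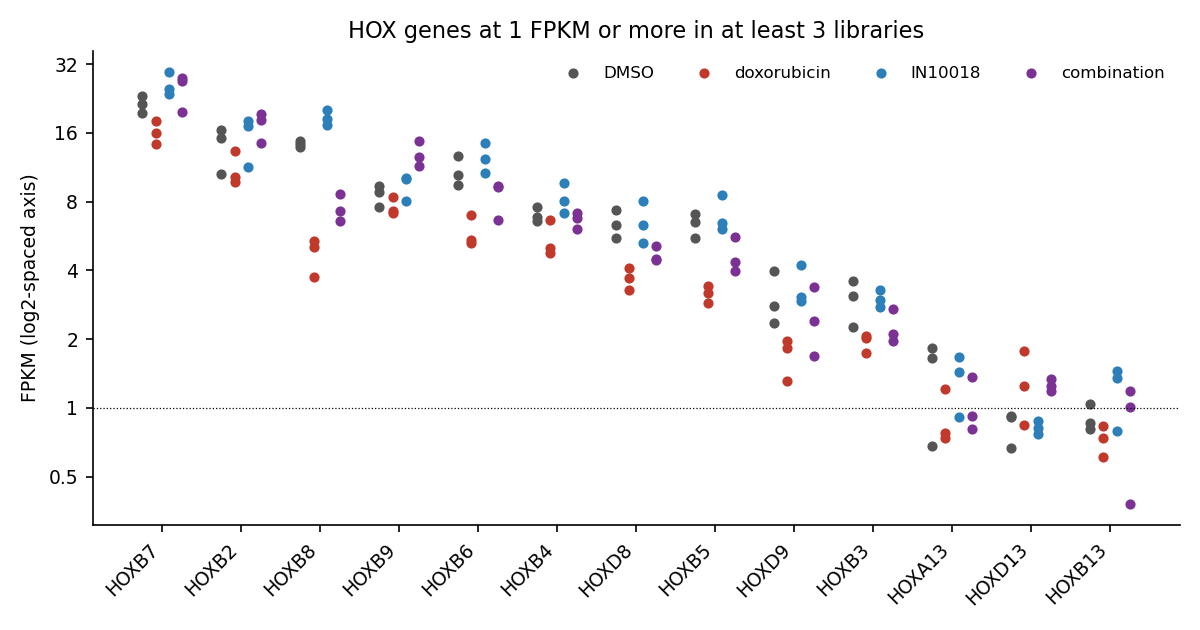
FPKM of the 13 HOX genes above the level, on a log2-spaced axis, ordered by their mean over the 12 libraries. Each point is a library, colored by treatment, and the dotted line is at 1 FPKM; the HOXB8 points with doxorubicin (3.75 to 8.65 FPKM) lie apart from those without it (13.9 to 20.2 FPKM).

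The genes nearest the level on its upper side were HOXA13 (at least 1 FPKM in 6 libraries), HOXD13 (5 libraries) and HOXB13 (5 libraries), and on its lower side HOXA5 (2 libraries, highest value 1.13 FPKM) and HOXD4 (1 library, highest value 1.29 FPKM). HOXD13 passed only through libraries with doxorubicin, 2 of doxorubicin alone and 3 of the combination, so a higher level there was built into its selection. The other 12 genes passed in libraries with and without doxorubicin. Of the 26 genes below the level, 3 (HOXB1, HOXC13 and HOXD12) were listed at 0 in every library, 6 were above 0 in 1 or 2 libraries, and 5 were above 0 in all 12. Those with a mean above 0.1 FPKM included HOXA2 (0.104 FPKM), HOXA3 (0.315 FPKM), HOXA5 (0.739 FPKM), HOXA10 (0.233 FPKM), HOXC9 (0.451 FPKM), HOXD3 (0.216 FPKM) and HOXD4 (0.469 FPKM), which stood for 0 to 25 reads in a library. The genes below the level were left out of the test. In a limma fit with no filter, 23 of the 26 were tested in 8 comparisons, 0 were called, and 4 of the changes had an unadjusted p under 0.05.

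HOXB8, a HOX gene known for its part in myeloid progenitors and leukemia, had the lowest values relative to control. In the 3 DMSO libraries it stood at 14.8, 13.9 and 14.3 FPKM, and in doxorubicin at 5.09, 5.38 and 3.75 FPKM. In IN10018 it stood at 18.4, 17.3 and 20.2 FPKM, and in the combination at 6.58, 8.65 and 7.29 FPKM. All 6 libraries with doxorubicin were below all 6 without it, as in 1.58% of all genes tested. The IN10018 libraries were above the DMSO libraries, as in 3.88% of all genes. The combination libraries were above those of doxorubicin alone, as in 24.8% of all genes. The mean in doxorubicin was 33.1% of that in DMSO, and the mean in the combination 40.3% of that in IN10018. On the log2(FPKM + 1) scale used for all tests, the difference from DMSO was −1.43 (SE 0.17, limma, Benjamini-Hochberg adjusted p = 0.000457 over 11301 genes), that between the combination and IN10018 −1.21 (SE 0.17, adjusted p = 0.000517) and that between the combination and DMSO −0.86 (SE 0.17, adjusted p = 0.00571). These values rested on 111 to 551 reads of HOXB8 per library.

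HOXB5 and HOXB6, neighbours in the middle of the cluster that are expressed together in the developing lung and gut, also fell with doxorubicin. HOXB5 was at 7.04, 5.53 and 6.52 FPKM in DMSO and at 3.43, 3.19 and 2.87 FPKM in doxorubicin, and at 8.52, 6.10 and 6.43 FPKM in IN10018 and 3.97, 4.33 and 5.58 FPKM in the combination. The doxorubicin libraries were below the DMSO libraries (as in 12.2% of all genes) and the combination libraries below the IN10018 libraries (4.56%). However, the highest combination value lay above the lowest DMSO value. The change of HOXB5 in doxorubicin against DMSO was −0.82 (SE 0.18, limma adjusted p = 0.0134) and in the combination against IN10018 −0.51 (SE 0.18, adjusted p = 0.0668), so that only the first passed. It lost its call without DMSO replicate 1 (adjusted p = 0.0631), DMSO replicate 3 (0.0517) or doxorubicin replicate 3 (0.0711).

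HOXB6 was at 10.5, 12.7 and 9.47 FPKM in DMSO and at 6.98, 5.43 and 5.27 FPKM in doxorubicin, and at 14.4, 10.7 and 12.3 FPKM in IN10018 and 6.62, 9.32 and 9.32 FPKM in the combination. All libraries with doxorubicin were below all without it. Its change was −0.78 in doxorubicin against DMSO (SE 0.19, limma adjusted p = 0.0264) and −0.52 in the combination against IN10018 (SE 0.19, adjusted p = 0.0869). The first call was lost when any of the DMSO libraries or doxorubicin replicates 2 or 3 was left out (adjusted p = 0.0507 to 0.122). In addition, exons of HOXB6 share 16.6% of their bases with HOXB3 on the same strand and 16.3% with the antisense gene HOXB-AS3 on the other. Reads in the bases shared with HOXB3 cannot be told apart by strand. The paper names a directional library kit, but strand use in the counting is not stated. Whether reads of HOXB-AS3 were kept apart is therefore not known. HOXB5 shares 3.58% of its exon bases with HOXB-AS3, while HOXB7, HOXB8 and HOXB9 share none with another gene.

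**Figure D2:**
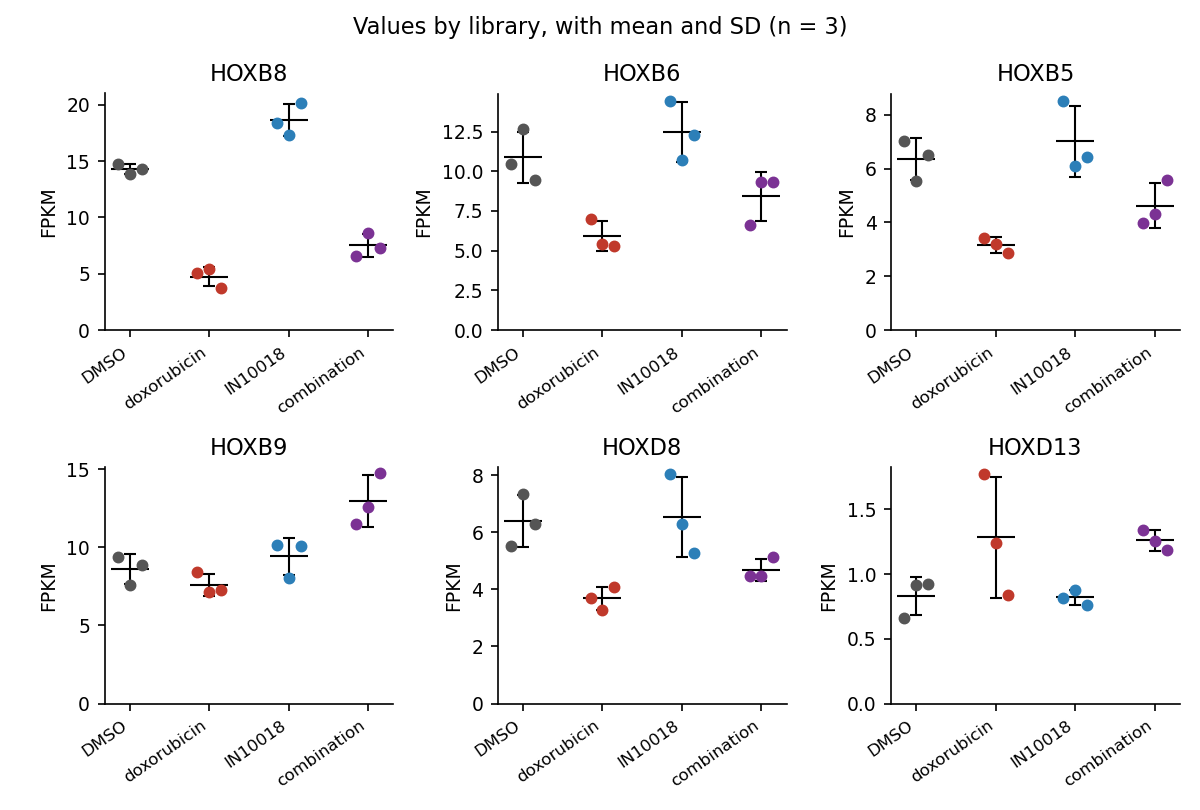
FPKM of 6 HOX genes in each library, by treatment (x axis), with the mean and SD of the 3 libraries in black and each y axis from 0. HOXB8, HOXB6 and HOXD8 were lower in every library with doxorubicin than in any without it, HOXB9 was highest in the combination (11.5 to 14.7 FPKM), and HOXD13 had higher means with doxorubicin (1.28 and 1.26 FPKM) than without (0.834 and 0.820 FPKM). HOXD13 passed the level only through libraries with doxorubicin.

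HOXB9, the next gene upstream of HOXB8 and a posterior HOX gene, did not follow its neighbour. It was at 9.40, 7.57 and 8.85 FPKM in DMSO, 8.41, 7.12 and 7.29 FPKM in doxorubicin, 10.1, 8.04 and 10.1 FPKM in IN10018, and 11.5, 12.6 and 14.7 FPKM in the combination. The 3 combination libraries were above the other 9, and the doxorubicin and DMSO ranges overlapped. Taken 1 group at a time, the combination libraries were above those of DMSO in 24.8% of all genes. They were above those of doxorubicin in 24.8% and above those of IN10018 in 24.6%. Its difference between doxorubicin and DMSO was −0.16 (SE 0.17, limma adjusted p = 0.654), that between the combination and DMSO 0.54 (SE 0.17, adjusted p = 0.0504) and that between the combination and doxorubicin 0.69 (SE 0.17, adjusted p = 0.214), none past the threshold. The median of all genes tested also lay above 0 in the last pair of comparisons, at 0.20 and 0.23. With the 3 libraries that stood apart left out (described below), the last difference was 0.71 with an adjusted p of 0.0407, and without combination replicate 1 it was 0.77 with an adjusted p of 0.0354. In these fits 1110 and 638 of the 11301 genes were called higher. Between combination and DMSO, HOXB9 passed without combination replicate 1 (0.0286), without IN10018 replicate 1 (0.0462) and among genes of at least 5 FPKM (0.0435). There 2213 and 1848 of the 11301 genes, and 851 of 5164 genes with the last filter, were called higher. With median-ratio scaling the differences of HOXB9 were smaller, 0.27 from DMSO (adjusted p = 0.262) and 0.43 from doxorubicin (adjusted p = 0.433), and with quantile normalization they were 0.25 (adjusted p = 0.246) and 0.44 (adjusted p = 0.344). Without combination replicate 3 they were 0.44 (adjusted p = 0.212) and 0.60 (adjusted p = 0.815).

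HOXB7, the most abundant member and one reported to be high in ovarian carcinoma, was at 23.3, 19.5 and 21.4 FPKM in DMSO and at 18.1, 14.3 and 16.0 FPKM in doxorubicin. It was at 24.8, 23.7 and 29.5 FPKM in IN10018 and at 19.7, 27.9 and 27.0 FPKM in the combination. The doxorubicin libraries were below the DMSO libraries, as in 12.2% of all genes, but the combination overlapped with both DMSO and IN10018. None of its differences passed the test, the one against DMSO in doxorubicin being −0.39 (SE 0.19, limma adjusted p = 0.250). The annotated HOXB7 gene extends over HOXB8, HOXB9 and MIR196A1 and shares no exon base with HOXB8 or HOXB9.

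At the 3′ end of the cluster, HOXB3 was at 3.58, 2.27 and 3.08 FPKM in DMSO, 2.03, 2.07 and 1.74 FPKM in doxorubicin, 2.97, 2.77 and 3.29 FPKM in IN10018 and 2.70, 1.97 and 2.11 FPKM in the combination. It was lower with doxorubicin within each IN10018 state, with an overlap between DMSO and the combination. HOXB4, which promotes self-renewal of blood stem cells, was at 7.58, 6.61 and 6.83 FPKM in DMSO, 6.68, 4.75 and 4.99 FPKM in doxorubicin, 9.67, 7.15 and 8.09 FPKM in IN10018 and 6.08, 7.13 and 6.77 FPKM in the combination, where DMSO and doxorubicin overlapped and the combination lay just below IN10018. HOXB2, an anterior hindbrain gene, had means of 14.1 ± 3.12, 11.1 ± 1.94, 15.5 ± 3.70 and 17.4 ± 2.63 FPKM (SD, n = 3) in DMSO, doxorubicin, IN10018 and the combination. HOXB13, a prostate lineage gene that stands apart from the rest of the cluster, had 0.901 ± 0.125, 0.728 ± 0.112, 1.20 ± 0.356 and 0.857 ± 0.423 FPKM in the same order. Neither HOXB2 nor HOXB13 passed the test in any comparison.

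In the HOXD cluster, HOXD8 was at 5.52, 7.34 and 6.30 FPKM in DMSO, 3.69, 3.29 and 4.08 FPKM in doxorubicin, 8.05, 6.30 and 5.29 FPKM in IN10018 and 4.47, 4.46 and 5.13 FPKM in the combination. Every library with doxorubicin was below every library without it. HOXD8 fell by 0.65 in doxorubicin against DMSO (SE 0.17, limma adjusted p = 0.0362), and its difference between the combination and IN10018 was −0.39 (SE 0.17, adjusted p = 0.147). The first call was lost when any of the 3 DMSO or 3 doxorubicin libraries was left out (adjusted p = 0.0633 to 0.143) and with median-ratio scaling (0.0760).

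HOXD9, its neighbour, was at 2.36, 3.96 and 2.78 FPKM in DMSO, 1.31, 1.83 and 1.95 FPKM in doxorubicin, 4.23, 2.93 and 3.06 FPKM in IN10018 and 1.68, 3.40 and 2.40 FPKM in the combination. The combination overlapped with the other 3 groups. HOXD13, a gene of digit and genital patterning at the other end of the cluster, was at 0.664, 0.912 and 0.924 FPKM in DMSO, 1.77, 1.24 and 0.841 FPKM in doxorubicin, 0.818, 0.876 and 0.765 FPKM in IN10018 and 1.34, 1.25 and 1.19 FPKM in the combination. Apart from doxorubicin replicate 3, each library with doxorubicin was above each without it. The selection favored such a pattern in HOXD13, and its values are a description.

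The stretches of 250 bases upstream of the RefSeq starts of HOXD8 (chr2:176129455-176129704, plus strand) and HOXD13 (chr2:176092471-176092720, plus strand) are shown because these are the HOXD genes above the level that the table holds (GRCh38.p14). Capitals mark the TATA box TATAAA, the CCAAT box CCAAT, the GC box GGGCGG and the PBX-HOX site TGATTNAT, on both strands.
HOXD8: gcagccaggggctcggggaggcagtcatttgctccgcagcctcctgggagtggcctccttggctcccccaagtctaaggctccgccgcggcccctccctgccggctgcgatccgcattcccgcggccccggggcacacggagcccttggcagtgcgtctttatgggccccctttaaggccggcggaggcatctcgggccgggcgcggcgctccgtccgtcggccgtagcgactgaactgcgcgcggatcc
HOXD13: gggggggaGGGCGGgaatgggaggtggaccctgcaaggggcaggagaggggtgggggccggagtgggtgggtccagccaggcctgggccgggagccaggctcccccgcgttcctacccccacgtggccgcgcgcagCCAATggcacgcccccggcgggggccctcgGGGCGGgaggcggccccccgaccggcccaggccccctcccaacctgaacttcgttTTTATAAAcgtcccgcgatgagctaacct
HOXD13 holds 2 GC boxes, 1 CCAAT box and a TATA box that reads as a match on either strand, where both matches overlap, and HOXD8 holds 0 of the 4 motifs in this window. Among 34943 RefSeq promoter windows of 300 bases, 11.6% hold a TATA box, 44.9% a GC box, 34.6% a CCAAT box and 2.82% a PBX-HOX site. Of the 26 windows of 19 HOX genes in the table, 5 hold a TATA box, 13 a GC box, 17 a CCAAT box and 2 a PBX-HOX site.

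HOXA13, which patterns the distal limb and the genital tract, was the one HOXA gene above the level, with means of 1.39 ± 0.621, 0.907 ± 0.260, 1.34 ± 0.390 and 1.03 ± 0.291 FPKM in DMSO, doxorubicin, IN10018 and the combination. It was highest in DMSO replicate 3 (1.83 FPKM) and lowest in DMSO replicate 2 (0.678 FPKM), so the DMSO libraries spanned those of every other treatment, and it did not pass the test in any comparison. Thus the 3 paralogues of the 13th group that passed had low values, while HOXC13 was listed at 0 in every library. In doxorubicin against DMSO the means of HOXA13 and HOXB13 were 65.4% and 80.7% of control and that of HOXD13 154%. HOXD13 passed the level only through libraries with doxorubicin, so its higher mean was built into its selection. The pair HOXB8 and HOXD8 had 33.1% and 57.7% of control, and the pair HOXB9 and HOXD9 88.4% and 56.0%.

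The effect of doxorubicin was also averaged over cells without and with IN10018, which compares 6 libraries with 6. HOXB8 had a change of −1.32 (SE 0.12, limma adjusted p = 9.96e-06), HOXB5 of −0.66 (SE 0.12, adjusted p = 0.00178), HOXB6 of −0.65 (SE 0.14, adjusted p = 0.00379) and HOXD8 of −0.52 (SE 0.12, adjusted p = 0.00781). HOXB3 at −0.36 (SE 0.12, adjusted p = 0.0355) and HOXD9 at −0.46 (SE 0.15, adjusted p = 0.0411) were also called lower. HOXB4 at −0.30 (SE 0.12, adjusted p = 0.1003), HOXB7 at −0.23 (SE 0.13, adjusted p = 0.250) and HOXB9 at 0.13 (SE 0.12, adjusted p = 0.482) were not, and the sign of HOXB9 turned to −0.0062 with median-ratio scaling and −0.022 with quantile normalization. The calls of HOXB8, HOXB5, HOXB6 and HOXD8 held in each of the 21 alternatives run, whereas HOXB3 lost its call in 10 of 20 and HOXD9 in 11 of 20. HOXB3 lost it without DMSO replicate 1 or 3, any doxorubicin library, IN10018 replicate 3 or combination replicate 2 or 3 (limma adjusted p = 0.0619 to 0.0922). HOXD9 lost it without DMSO replicate 2 or 3, any doxorubicin library, IN10018 replicate 1 or 3 or combination replicate 1 or 3 (adjusted p = 0.0555 to 0.107).

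As counts, 6 of the 13 genes were lower in this averaged comparison, where 4.84% of all 11301 genes tested were lower, and 0 were higher, where 19.2% of all genes were. In doxorubicin against DMSO 4 of the 13 were lower, against 2.10% of all genes. In the combination against IN10018 and against DMSO 1 was lower, HOXB8 in both, against 1.43% and 1.28% of all genes. The groups did not overlap, every library with doxorubicin being below every library without, in 3 of the 13 (HOXB6, HOXB8 and HOXD8) and in 1.58% of all genes. HOXB8, whose fall was known when the genes were chosen, is in each count of lower HOX genes here and below. These counts are therefore a description. The median change of the 12 genes other than HOXD13 was −0.40 in doxorubicin against DMSO, beside −0.01 for all genes, and −0.29 in the combination against IN10018, beside 0.20 for all genes.

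The share of all genes called lower changed with the scaling and with the libraries. With median-ratio scaling, 8 of the 13 HOX genes and 11.4% of all genes were called lower in the averaged comparison, and 15.8% of all genes higher. With quantile normalization these were 9 of the 13 genes, 13.6% and 15.3%. Without the 3 libraries that stood apart they were 7 of the 13 genes (HOXA13 added to the 6), 12.1% and 20.6%, and in doxorubicin against DMSO 6 of the 13 genes and 15.1% of all genes were lower. No HOX gene was called higher in the averaged comparison or in doxorubicin against DMSO under any of these.

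**Figure D3:**
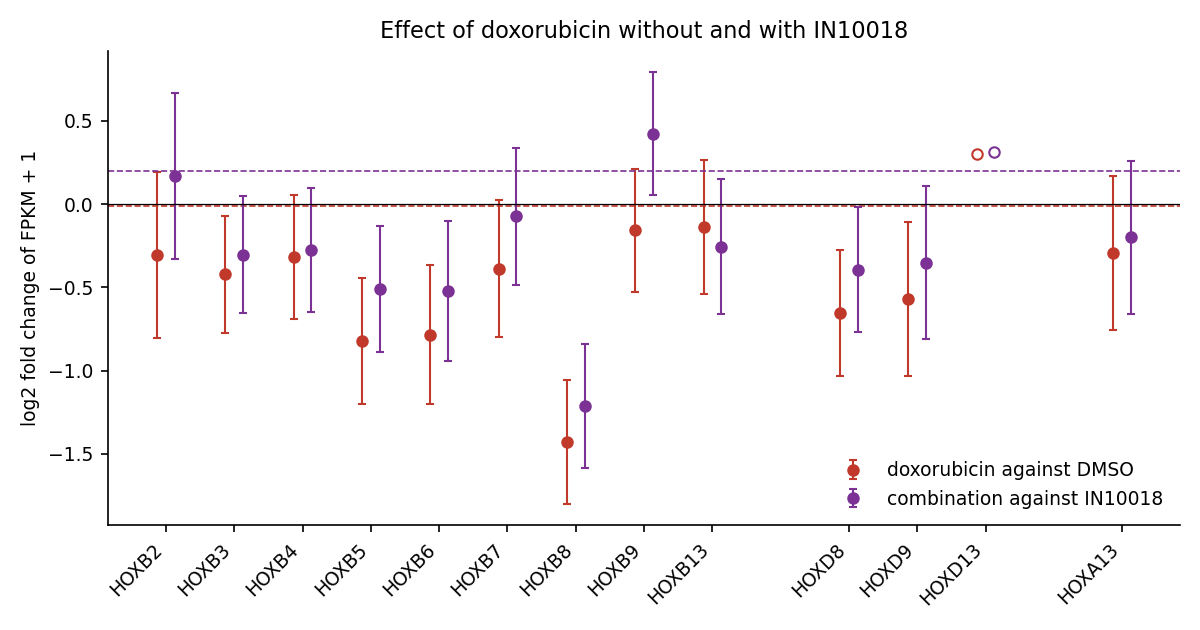
log2 fold change of FPKM + 1 of each of the 13 HOX genes (x axis, in chromosomal order within the HOXB cluster) for doxorubicin against DMSO (red) and the combination against IN10018 (purple), with 95% confidence intervals from limma except for HOXD13 (open circles), which the level selected through libraries with doxorubicin. Dashed lines are the medians of all 11301 genes (−0.01 and 0.20), and HOXB8 has the lowest value in both comparisons (−1.43 and −1.21), while its neighbour HOXB9 is at −0.16 and 0.42.

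The comparisons of doxorubicin with DMSO and of the combination with IN10018 share no library. Among the 12 HOX genes other than HOXD13, the sign of the change was the same in both for 10, the exceptions being HOXB2 and HOXB9, and it was the same for 66.0% of all genes tested. Across the 12 genes, which come from the same libraries and are not independent of each other, Pearson's r between the changes was 0.88 and Spearman's rho 0.88, and across all genes they were 0.70 and 0.67. HOXB8, whose fall was known when the genes were chosen, is among the 12 and has the lowest value in both comparisons. The agreement is therefore a description, and the correlation without HOXB8 is not given. The difference between both effects, the interaction, was 0.21 for HOXB8 (SE 0.24, 95% confidence interval −0.31 to 0.74, limma adjusted p = 0.707) and 0.58 for HOXB9 (SE 0.24, 0.05 to 1.10, adjusted p = 0.685). It was called in 0 of the 13 and 0% of all genes, at an unadjusted p under 0.05 in 1 HOX gene (HOXB9) and 689 genes, and with voom on recovered reads in 0 and 0 genes. The median interaction over all genes was 0.24.

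Within a library the ratio of 2 genes does not depend on a factor common to all genes of that library. HOXB8 was above HOXB9 in each library without doxorubicin, at ratios of 1.67 ± 0.140 (SD, n = 3) in DMSO and 1.99 ± 0.171 in IN10018, and below it in each library with doxorubicin, at 0.625 ± 0.122 alone and 0.584 ± 0.0967 in the combination. The ratio of HOXB8 to HOXB7 was 0.672 ± 0.0388 and 0.7196 ± 0.0307 without doxorubicin and 0.298 ± 0.0728 and 0.305 ± 0.0325 with it, and no library of one kind reached the range of the other. HOXB8 made up 16.0% to 19.7% of the summed HOXB FPKM without doxorubicin and 7.18% to 10.1% with it. The ratio of HOXB6 to HOXB7 was 0.514 ± 0.117 in DMSO, 0.365 ± 0.0308 in doxorubicin, 0.484 ± 0.0862 in IN10018 and 0.339 ± 0.00577 in the combination.

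**Figure D4:**
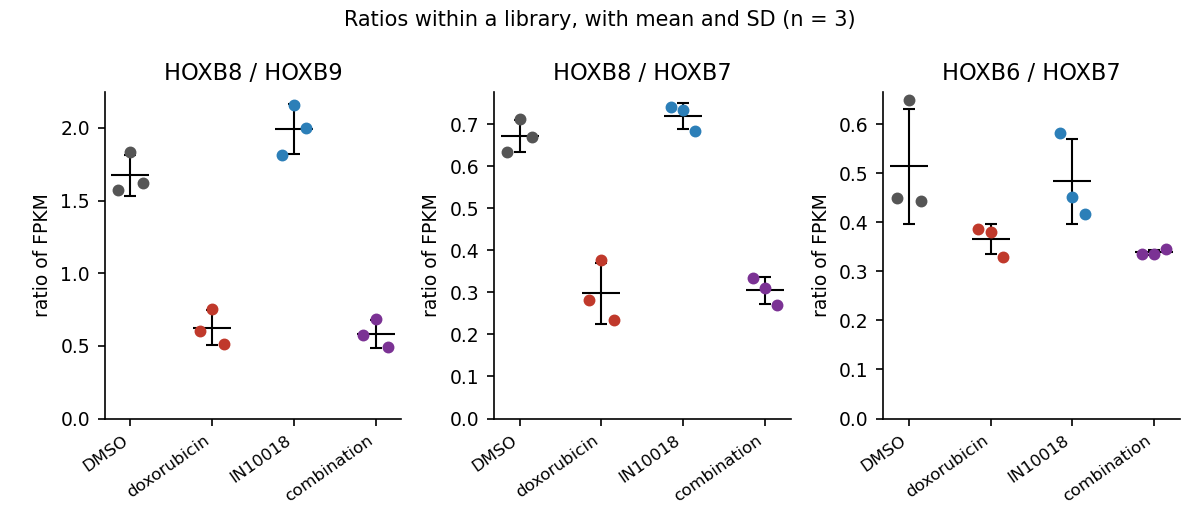
Ratios of FPKM of 2 HOX genes within each library (y axis, from 0), by treatment, with mean and SD of 3 libraries in black. The HOXB8 to HOXB9 ratio is 1.57 to 2.16 in libraries without doxorubicin and 0.494 to 0.755 in those with it.

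IN10018 alone gave higher means of HOXB8 and HOXB7, without a call. The HOXB8 difference from DMSO was 0.36 (SE 0.17, limma adjusted p = 1) and that of HOXB7 0.27 (SE 0.19, adjusted p = 1). In both genes the IN10018 libraries were above the DMSO libraries, as in 3.88% of all genes. In this comparison 0 of the 13 genes were called, at an unadjusted p under 0.05 also 0 of the 13, and 0.00885% of all genes were called. The voom fit on recovered reads likewise called 0 HOX genes. Averaged over cells without and with doxorubicin, the effect of IN10018 was 0.46 for HOXB8 (SE 0.12, adjusted p = 0.263), 0.43 for HOXB7 (SE 0.13, adjusted p = 0.321) and 0.40 for HOXB9 (SE 0.12, adjusted p = 0.321). Here 0 of 13 genes were called (voom 0), with 0.0708% of all genes, and 6 of the 13 and 1243 of all genes had an unadjusted p under 0.05. Without combination replicate 1, HOXB7 and HOXB8 were called higher, as were 287 of the 11301 genes.

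The mean of HOXB8 in the combination lay between those of DMSO and of doxorubicin alone. The difference between the combination and doxorubicin was 0.57 for HOXB8 (SE 0.17, limma adjusted p = 0.246), 0.58 for HOXB7 (SE 0.19, adjusted p = 0.246), 0.60 for HOXB2 (SE 0.23, adjusted p = 0.272) and 0.43 for HOXB5 (SE 0.18, adjusted p = 0.283). Of the 13 HOX genes 0 had a value below 0 in this comparison, as 2126 of the 11301 genes had, with medians of 0.35 and 0.23. In it 0 of the 13 and 0% of all genes were called, 6 of the 13 and 1778 of all genes had an unadjusted p under 0.05, and voom called 0 HOX genes and 2 genes in all. With median-ratio scaling the median of the 13 was 0.15 and 4 of them were below 0, and with quantile normalization 0.13 and 5. The sum over the HOXB cluster was 86.5 ± 5.24 FPKM in DMSO, 56.8 ± 7.04 FPKM in doxorubicin, 102 ± 11.9 FPKM in IN10018 and 85.5 ± 11.8 FPKM in the combination, so that the doxorubicin libraries (52.3 to 64.9 FPKM) were below all others.

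Among 19 antisense and other noncoding RNA genes of the HOX clusters, 4 passed the level and 2 were called lower in the averaged doxorubicin comparison. Of all genes tested, 4.84% were called lower there. HOTAIRM1, a noncoding RNA of the HOXA cluster known from myeloid differentiation, was at 11.1, 10.5 and 16.6 FPKM in DMSO, 9.99, 7.45 and 8.58 FPKM in doxorubicin, 10.5, 12.8 and 13.1 FPKM in IN10018 and 5.28, 6.79 and 8.34 FPKM in the combination. Every library with doxorubicin was below every library without it, as in 1.58% of all genes tested. The averaged change of HOTAIRM1 was −0.63 (SE 0.15, limma adjusted p = 0.00906). HOXB-AS3, antisense to HOXB5 and HOXB6, stood above HOXB7 in FPKM in every library, with means of 37.7 ± 1.30, 30.0 ± 0.870, 41.3 ± 3.86 and 26.6 ± 3.32 FPKM in DMSO, doxorubicin, IN10018 and the combination. HOXB-AS3 was also lower in every library with doxorubicin (22.7 to 31.0 FPKM) than without (36.4 to 45.8 FPKM), again as in 1.58% of all genes. It changed by −0.47 (SE 0.12, adjusted p = 0.0123). HOXB-AS1 had a difference of 0.38 (SE 0.17, adjusted p = 0.132) and HOXD-AS2 one of −0.01 (SE 0.16, adjusted p = 0.968), while HOTAIR, from the HOXC cluster, was listed at 0 in every library.

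Genes that act with or on HOX genes were counted in the same averaged comparison. Of 26 Polycomb genes 24 were tested, of which 6 were higher and 0 lower. These included the H3K27 methyltransferase EZH2 (0.61, SE 0.10) and its partner EED (0.71, SE 0.13), together with KDM6B (0.65, SE 0.10), a demethylase that opposes them. Of 14 MLL and menin complex genes, all tested, 3 were higher and 0 lower, among them ASH2L (0.55, SE 0.14), a core subunit of MLL complexes. Of the 9 TALE partner genes 4 were tested and 1, PBX4, was higher (0.65, SE 0.16). PBX4 reached 1 FPKM only in libraries with doxorubicin, so a higher level there was built into its selection and its value is a description. Of 16 retinoic acid genes 7 were tested and 1, the receptor RARA, was higher (0.65, SE 0.12). Of 11 CTCF and cohesin genes, all tested, 1 was higher, SMC1A (0.82, SE 0.17). Of 69 other homeobox genes 20 were tested, of which 5 were higher, including TGIF1 (0.73, SE 0.10) and MSX2 (0.91, SE 0.14), and 1 was lower, BARX1 (−0.49, SE 0.12). Of 14 genes that flank the clusters 7 were tested and 1 was lower, HIBADH, beyond the HOXA cluster (−0.61, SE 0.20). These shares are to be read beside the 19.2% higher and 4.84% lower among all genes, and the medians of the lists were 0.26 for the Polycomb genes, 0.14 for the MLL genes and 0.29 for the other homeobox genes, beside 0.09 for all genes and −0.33 for the 12 HOX genes other than HOXD13.

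Whole reads recovered from the FPKM values gave 8033951 to 12901505 reads per library. On the leading axis of the variation within groups, which held 55.4% of it, 3 libraries lay far from the others of their groups (replicate 2 of DMSO, replicate 1 of IN10018 and replicate 2 of the combination), and the values without them are given above. The labels do not say whether replicates were separate cultures, and the p-values therefore cover the spread between these libraries alone. Of 10 epithelial and ovarian carcinoma markers 7 passed the level, keratins, EPCAM, PAX8 and ERBB2 among them, while CDH1, WT1 and MUC16 were below it. Of 12 markers of other cell types 2 passed, LYZ and COL1A1, and the 12 summed to 2.90 to 3.80 FPKM in DMSO, 4.47 to 14.1 FPKM in doxorubicin, 3.30 to 7.93 FPKM in IN10018 and 2.28 to 4.16 FPKM in the combination. Of the carcinoma markers, KRT7 was higher (1.07, SE 0.29, limma adjusted p = 0.0409) and ERBB2 lower (−0.90, SE 0.26, adjusted p = 0.0489) in doxorubicin against DMSO, and COL1A1 had a difference of −0.57 there (SE 0.17, adjusted p = 0.0523) and was called lower in the averaged comparison (−0.43, SE 0.12, adjusted p = 0.0175). LYZ, which rose in doxorubicin against DMSO (2.42, SE 0.48, limma adjusted p = 0.00855), reached 12.7 FPKM in doxorubicin, the defining markers PTPRC, CD3E and CD68 were at or near 0, and the part of these markers in the HOX results was not tested. In bulk RNA, fewer cells that express a HOX gene and less of its RNA per cell cannot be told apart.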

How the data were processed

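RNA of SK-OV-3 cells was sequenced in 12 libraries, 3 for each of 4 treatments. The FPKM values of 60623 Ensembl genes per library were deposited by the authors, already normalized to transcript length and library size, and it is uncertain which program made them. The study names TopHat and Cuffdiff, and the submitters' processing notes also Cufflinks and hg38, without versions. The values stood for whole reads (tolerance 1e-11) in each of the 24090 genes that were above 0 in 3 or more libraries, which gave the depth of each library, 8033951 to 12901505 reads. The transcript length implied by these reads differed from the exon length in GENCODE release 29 by over 5% for HOXB4, HOXB8 and HOXD13 among the 13 genes above the level and for several below it, so the authors' annotation may differ there.

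Rows that shared a symbol were summed (93 symbols), and 11301 symbols reached 1 FPKM in 3 or more libraries and were tested. The 4 treatment means of log2(FPKM + 1) were compared with limma 3.58.1 in R 4.3.3, without a replicate block, two-sided over these genes, with Benjamini-Hochberg adjustment and a threshold of 0.05. Adjusted p-values come from this fit. The method was tested on simulated data. Python 3.11.15, pandas 2.3.3, numpy 2.4.6 and matplotlib 3.10.9 were used for tables and figures.

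HOX genes above the level are given in every library if called in a comparison or at an unadjusted p under 0.05 in the averaged doxorubicin effect, others by group means, and those below by counts, naming the ones above 0.1 FPKM on average. HOXB7 and HOXB9 were named in every library after their values were seen. From other lists up to 4 called members are named. A few genes covered by these rules are not reported. The members and lists were chosen with earlier results of these data known. Alternatives changed the pseudocount, the filter, the scaling, the block, the groups fitted and the libraries, and voom was fitted to the recovered reads. The interval and error values cover the spread between libraries only. Promoters of HOX genes outside the 19 with RefSeq windows, HOXB8 among them, were not analysed here.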

Additional observations from a re-analysis of the deposited data

How the results depend on the processing

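The number of HOX genes called in doxorubicin against DMSO was 4, and 2 with no filter and 2 with the replicate block. It was 3 with median-ratio scaling (4.15% of all genes lower) and 5 with quantile normalization (5.7%). Without the 3 libraries that stood apart it was 6 (15.1%). Leaving out single libraries gave 1 to 4, with 1 (HOXB8) without DMSO replicate 1, DMSO replicate 3 or doxorubicin replicate 3. In the combination against DMSO it was 1, and 2 with a filter of 5 FPKM, where HOXB9 was added as higher. With that filter 851 of 5164 genes were called higher. The number was 3 with median-ratio scaling (3.68% of all genes lower) and 5 with quantile normalization (4.38%), with 1 to 2 when single libraries were left out. In the combination against IN10018 it was 1, and 4 and 6 with the same scalings (4.16% and 5.16% of all genes lower), with 1 to 1 when single libraries were left out. Between the combination and doxorubicin it was 0, with 0 to 2 when single libraries were left out. Without the 3 libraries that stood apart, an alternative chosen after seeing the data, it was 1 (HOXB9, higher), where 9.82% of all genes were called higher. For the averaged effect of IN10018 the number of HOX genes called was 0, with 0 to 2, and for that of doxorubicin 6, with 4 to 6. Without doxorubicin replicate 3, the 5 called for doxorubicin included HOXD13 as higher, as were 1746 of the 11301 genes. HOXD13 passed the level only through libraries with doxorubicin, so this call is a description. HOXB8 was called lower in each of the 3 comparisons of single groups with and without doxorubicin under all 22 alternatives, between −1.61 and −1.30 in doxorubicin against DMSO. Among the values given for single genes, signs turned in the HOXB8 interaction (0.21, and −0.046 with median-ratio scaling and −0.0058 with quantile normalization) and the averaged HOXB9 effect (0.13, and −0.0062 and −0.022). Over the 13 genes, the interaction was below 0 in 1, and in 7 and 6 with these scalings, and the difference between the combination and doxorubicin in 0, and in 4 and 5. The cause of these moves was not tested.

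Replicate numbers did not pair the libraries. Correlations of deviations between libraries with the same number were −0.68 to 0.72, over 0.1 in 5 of 18 pairs. With the replicate block, HOXB6 and HOXD8 lost their calls in doxorubicin against DMSO (limma adjusted p = 0.0646 and 0.0855), and 4 in place of 6 genes were called in the averaged comparison. The counts in other comparisons were the same with the block.

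Depth limits the 26 genes below the level. The scaling, the filter, the block and single libraries each changed how many of the 13 were called.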
